A study of Homo sapiens with 38 samples.

Results

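The RNAs described here are 9 much-studied long noncoding RNAs, NEAT1, MALAT1, KCNQ1OT1, TUG1, PVT1, LINC-PINT, NORAD, DANCR and H19, taken by name from the 58425 genes to which the transcripts of the tables could be assigned. They were chosen as a list of names and not by their levels. The question is where each RNA sat in HCT116 cells, a human colon cancer line, and whether its level in nuclei or cytoplasm differed in lines that lack Argonaute proteins, the proteins that carry microRNAs to their targets. Total RNA depleted of ribosomal RNA was sequenced from nuclear and from cytoplasmic fractions of 5 genotypes, with 3 libraries in each of the 10 groups and 30 libraries in all. The 8 eCLIP samples of the series were not used here.

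The control groups were nuclear wild-type and cytoplasmic wild-type cells of passages 27, 28 and 29, with no edited gene. The other 8 groups were nuclear or cytoplasmic fractions of an AGO1 knockout (passages 6, 7 and 8), an AGO2 knockout (passages 8, 9 and 10), an AGO1/2 knockout (passages 9, 10 and 11) and an AGO1/2/3 knockout (passages 11, 12 and 14), all made by gene editing of HCT116 cells and grown untreated in the same medium. Each genotype was 1 cell line, and its 3 libraries per fraction were passages of that line, so p-values measure only the spread between these cultures. Genotype, line and passage number cannot be told apart in any comparison with wild type. Libraries are named below by genotype, fraction and passage.

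A long noncoding RNA is a transcript with no recognised protein product, and where it sits in the cell goes with what it does. NEAT1 is the scaffold of paraspeckles, nuclear bodies that hold RNA-binding proteins, and MALAT1 is an abundant RNA of nuclear speckles, where splicing factors collect. KCNQ1OT1 is an antisense RNA that silences its imprinted neighbours in cis, LINC-PINT is a p53-induced RNA, and PVT1 is transcribed beside the MYC oncogene. TUG1 is found in both compartments, whereas NORAD works in the cytoplasm, where it binds proteins of the Pumilio family, and DANCR and H19 are often studied as cytoplasmic RNAs that meet microRNAs. H19 is also an imprinted RNA and the precursor of a microRNA.

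Sequence elements linked to some of these roles are short, and a few are shown with the partner or end structure they are known for. Binding at them was not tested. They were read on the sense strand of 1 GENCODE release 44 transcript per gene (GRCh38), with the motif in capitals. NORAD (chromosome 20, 36045618 to 36051018, minus strand) held the Pumilio element TGTANATA 15 times in 5401 nt, or 2.78 times per kb. Of 5071 transcripts of like length, 42.9% held it at least once and 0.0789% as often as NORAD. 4 of the 15 copies are shown with 8 bases on either side:
NORAD match 1, chr20:36050185-36050208: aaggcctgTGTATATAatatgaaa
NORAD match 2, chr20:36049806-36049829: cactactgTGTATATAgttgacaa
NORAD match 11, chr20:36047974-36047997: ccctactgTGTATATAgcggacaa
NORAD match 14, chr20:36047353-36047376: tgctactgTGTATATAatggaaaa
NEAT1 held the element 6 times in its 22743-nt transcript, KCNQ1OT1 9 times and TUG1 2 times, and these letters were not found in the transcripts searched for MALAT1, PVT1, LINC-PINT, DANCR and H19. Of transcripts of like length, 74.3% held it for NEAT1 and 40.9% for TUG1. KCNQ1OT1 had only 2 transcripts of like length, and 100% held it.

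NEAT1 and MALAT1, neighbours on chromosome 11, end without a poly(A) tail, in a triple helix that an A-rich tract forms with upstream U-rich motifs. The A-rich tract ended at the last base of the long NEAT1 transcript and occurred 2 times in the MALAT1 transcript, where the second copy lay downstream of the U-rich motif. The second copy lay 1957 bases before the end of the annotated MALAT1 transcript searched, and the U-rich letters searched were not found in the NEAT1 transcript. Of 1262 transcripts as long as MALAT1, 5.15% held the tract.
NEAT1 end, chr11:65445522-65445540, plus strand: tgagcaggAAAAAGCAAAA
MALAT1 U-rich motif, chr11:65506021-65506046, plus strand: catgaaggTTTTTCTTTTcctgagaa
MALAT1 A-rich tract, chr11:65506098-65506124, plus strand: aaaaaaaaAAAAAGCAAAAgatgctgg
The letters CTACCTC, which pair with the seed of let-7, occurred 3 times in NEAT1 and 8 times in KCNQ1OT1 and were not found in the other 7 transcripts searched. Of 74 transcripts as long as NEAT1, 70.3% held them, as did 100% of the 2 as long as KCNQ1OT1. The seed match of miR-17 occurred 10 times in KCNQ1OT1 and 2 times each in NEAT1 and MALAT1. It occurred 1 time each in PVT1, LINC-PINT, NORAD and H19 and was not found in TUG1 and DANCR. Of transcripts as long as NEAT1, 85.1% held it. The RefSeq miRNAs that bear on the list are let-7a-5p and the H19-derived miR-675-5p, shown with the seed, bases 2 to 8, in capitals.
hsa-let-7a-5p: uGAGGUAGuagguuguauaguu
hsa-miR-675-5p, chr11:1996800-1996822, minus strand: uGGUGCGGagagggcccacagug

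The other genes lie at chromosome 11, 65422774 to 65445540 (NEAT1, plus strand), chromosome 11, 65497640 to 65508073 (MALAT1, plus), chromosome 11, 2597308 to 2700003 (KCNQ1OT1, minus, inside the gene KCNQ1 on the opposite strand), chromosome 22, 30969245 to 30979395 (TUG1, plus), chromosome 8, 127794526 to 128187101 (PVT1, plus), chromosome 7, 130791264 to 131110176 (LINC-PINT, minus), chromosome 4, 52712325 to 52723623 (DANCR, plus) and chromosome 11, 1995166 to 2004552 (H19, minus). Release 44 types TUG1 as protein-coding and the other 8 as lncRNA genes. The tables held 1 of the 14 release 44 transcripts of KCNQ1OT1, 20 of the 190 of PVT1 and 1 of 1 for NORAD.

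Libraries held 20431557 to 54097984 estimated reads in nuclei and 39476205 to 79731793 in cytoplasm, and the wild-type libraries were the shallowest of each fraction. H19 had the fewest reads of the list, 53 to 691 per library, and MALAT1 the most, 27433 to 437386. The keratin RNA KRT8 was at 446 TPM in wild-type cytoplasm, the immune marker PTPRC was at 0 in wild-type nuclei, and the intestinal marker VIL1 was near 0 throughout. Epithelial markers moved in both multiple knockouts. CDH1, the cell adhesion protein E-cadherin, was at 21.3 TPM in wild-type and 4.15 TPM in AGO1/2 knockout nuclei and at 12.4 and 1.12 TPM in cytoplasm. EPCAM went from 142 to 44.1 TPM in that cytoplasm, and KRT8 from 498 to 1212 TPM in nuclei. In the AGO1/2/3 knockout CDH1 was at 5.77 TPM in nuclei and 1.90 TPM in cytoplasm. There EPCAM was at 52.0 TPM in cytoplasm and KRT8 at 976.5 TPM in nuclei. In the AGO1 and AGO2 knockouts CDH1 was at 7.76 and 17.4 TPM in nuclei and 4.665 and 7.41 TPM in cytoplasm. Of 5 epithelial markers tested, 3 rose and 2 fell in the nuclei of each multiple knockout. In cytoplasm none rose and 2 fell in AGO1/2, and 2 rose and 2 fell in AGO1/2/3. The part of these markers in the lncRNA results was not tested. AGO1 mRNA was at 9.34 to 12.6 TPM in wild-type nuclei and at 2.39 to 2.86 TPM in AGO1/2/3 knockout nuclei, while AGO2 mRNA was at 46.0 to 57.8 and 24.5 to 29.3 TPM and AGO3 mRNA at 18.3 to 23.3 and 13.7 to 16.1 TPM. AGO3 mRNA was at a mean of 14.6 to 15.0 TPM in the nuclei of the other knockout lines too, and in cytoplasm at 8.39 TPM in wild type and 8.64 TPM in the AGO1/2/3 knockout, so it gives no check of that label. An edit that stops a protein need not remove its mRNA. Both passage 29 wild-type libraries stood apart, with a lowest correlation to their replicates of 0.988 in nuclei and 0.991 in cytoplasm across genes, and results that rest on them are also given without them.

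In wild-type cells the 9 RNAs spread over the whole range of compartments. On the length-corrected TPM scale, nuclear levels ran from 3041 ± 407 TPM (SD, n = 3) for MALAT1 through 127 ± 45.1 for NEAT1, 56.2 ± 7.51 for PVT1, 54.9 ± 9.60 for LINC-PINT, 52.1 ± 1.59 for NORAD, 44.7 ± 8.01 for DANCR and 38.8 ± 5.35 for TUG1 to 1.93 ± 0.421 for KCNQ1OT1 and 1.12 ± 0.208 for H19. PVT1, LINC-PINT, NORAD and DANCR did not differ beyond their spreads in that order. In the cytoplasm MALAT1 was again highest, at 120 ± 34.3 TPM, followed by DANCR at 48.3 ± 12.4 and NORAD at 44.2 ± 4.11, whose spreads overlapped, and KCNQ1OT1 was lowest, at 0.0385 ± 0.0177 TPM. All further levels are CPM, read counts relative to the TMM-scaled size of each library, which compare 1 RNA between libraries and not RNAs with each other.

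**Figure D1:**
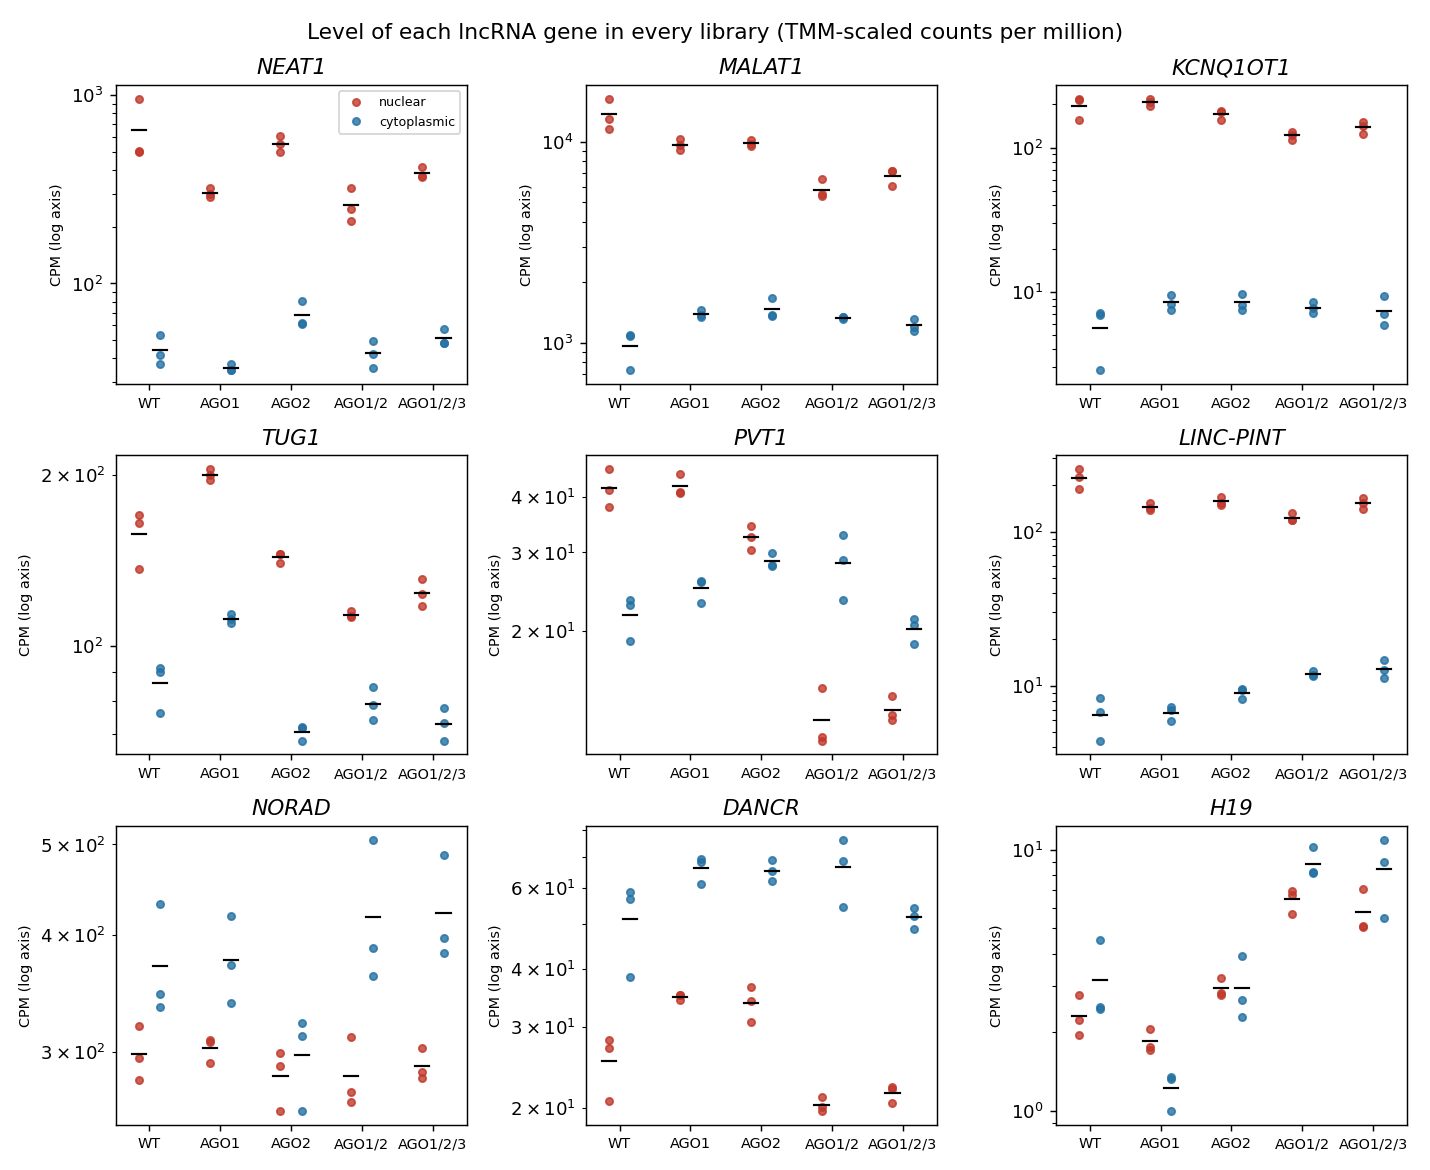
Level of each of the 9 RNAs in every library, in TMM-scaled CPM on a log axis, by genotype and fraction; points are single libraries and bars are group means of 3. NEAT1, MALAT1, KCNQ1OT1 and LINC-PINT are separated by fraction in all 5 genotypes, while PVT1 is higher in nuclei in wild-type cells and higher in cytoplasm in the AGO1/2 and AGO1/2/3 knockouts.

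KCNQ1OT1, the imprinting antisense RNA, was at 220 CPM in wild-type nuclei of passage 27, 215 in passage 28 and 155 in passage 29, against 7.20, 6.91 and 2.86 CPM in the matching cytoplasm. Its nuclear over cytoplasmic ratio was 34.8-fold (log2 5.12, SE 0.224, adjusted p = 1.23e-16). LINC-PINT, the p53-induced RNA, was at 226, 254 and 189 CPM in nuclei and 8.34, 6.72 and 4.40 CPM in cytoplasm, a ratio of 34.4-fold (log2 5.11, SE 0.160, adjusted p = 2.41e-19). These 2 RNAs were the most nuclear of the list, and 92.2% of the 3659 lncRNA genes tested had a lower ratio than either.

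The nuclear-body RNAs came next. MALAT1, the speckle RNA, was at 11640, 13090 and 16480 CPM in wild-type nuclei of passages 27, 28 and 29 and at 1081, 1089 and 727 CPM in cytoplasm, a 14.2-fold ratio (log2 3.83, SE 0.142, adjusted p = 5.6e-18). NEAT1, the paraspeckle scaffold, was at 501, 506 and 960.2 CPM in nuclei and 37.5, 41.8 and 53.5 CPM in cytoplasm, a 14.8-fold ratio (log2 3.89, SE 0.210, adjusted p = 7.65e-15). No library of 1 fraction reached the range of the other for either RNA. The nuclear NEAT1 value of passage 29 stood above those of the other passages, and without both passage 29 libraries the log2 ratio was 3.68.

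PVT1 and TUG1 were moderately nuclear. PVT1 was at 41.4, 46.1 and 37.9 CPM in wild-type nuclei and 22.9, 23.5 and 19.04 CPM in cytoplasm (log2 ratio 0.94, SE 0.111, adjusted p = 2.77e-08). TUG1 was at 165, 170.0 and 137 CPM in nuclei and 90.1, 91.7 and 76.3 CPM in cytoplasm (log2 ratio 0.87, SE 0.0746, adjusted p = 7.38e-11). Both ratios lay under the median of all lncRNA genes, 2.01 on the log2 scale, with 30.4% and 29.2% of lncRNA genes below them.

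By CPM DANCR was the most cytoplasmic, at 28.1, 27.0 and 20.8 CPM in wild-type nuclei and 56.6, 58.6 and 38.5 CPM in cytoplasm (log2 ratio -1.02, SE 0.127, adjusted p = 7.52e-08). In TPM its wild-type levels were 44.7 ± 8.01 in nuclei and 48.3 ± 12.4 in cytoplasm (SD, n = 3), with overlapping spreads. NORAD, the Pumilio-binding RNA, was at 280.2, 296 and 320.1 CPM in nuclei and 335, 346 and 432 CPM in cytoplasm, a log2 ratio of -0.31 (SE 0.119, adjusted p = 0.0197) that turned to 0.24 on the log2(TPM + 1) scale and to 0.21 with scaling by library totals alone. The NORAD call was lost without cytoplasmic wild-type passage 29 (-0.20) or nuclear wild-type passage 27 (-0.26) or 28 (-0.2967), and with both passage 29 libraries left out (-0.23, adjusted p = 0.135). H19 was at 2.77, 1.95 and 2.22 CPM in nuclei and 2.51, 2.46 and 4.53 CPM in cytoplasm, and its ratio did not pass the test (log2 -0.45, SE 0.262, adjusted p = 0.123), with overlapping libraries. In wild-type cells 6 of the 9 RNAs were thus higher in nuclei and 2 in cytoplasm at an adjusted p of at most 0.05, against 39.6% and 37.3% of the 20104 genes tested, and their median log2 ratio was 0.94, against 0.04 over all genes.

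The nuclear levels of most of the list were lower in the lines without both AGO1 and AGO2. In AGO1/2 knockout nuclei 7 of the 9 RNAs fell and 1 rose, against 34.7% and 32.9% of the 18919 genes tested, and their median log2 change was -0.62, against -0.06 over all genes. In AGO1/2/3 knockout nuclei 6 fell and 1 rose, against 29.5% and 29.1% of genes, with a median of -0.42 against -0.03. In AGO1 knockout nuclei 3 fell and 2 rose (background 15.6% and 14.3%), and in AGO2 knockout nuclei 3 fell and 1 rose (background 19.9% and 20.2%). All 4 comparisons share the same 3 wild-type libraries, and differences between knockout lines were not tested.

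PVT1 showed the largest fall of the list. It was at 11.6, 14.9 and 11.4 CPM in the AGO1/2 knockout nuclei and at 14.3, 13.0 and 12.7 CPM in the AGO1/2/3 knockout nuclei, so all 6 libraries lay below the lowest wild-type value of 37.9. The level was 3.16-fold lower in the AGO1/2 knockout (log2 -1.66, SE 0.0963, adjusted p = 1.6e-09) and 2.99-fold lower in the AGO1/2/3 knockout (log2 -1.58, SE 0.0965, adjusted p = 4.22e-09). In the AGO2 knockout it was at 34.4, 32.6 and 30.3 CPM and fell by 0.37 on the log2 scale (SE 0.0928, adjusted p = 0.00513), and in the AGO1 knockout, at 44.99, 40.8 and 41.0 CPM, it did not pass the test (log2 -0.01, SE 0.0925, adjusted p = 0.942). Of all lncRNA genes, 11.7% had a lower value than PVT1 in the AGO1/2 knockout and 7.22% in the AGO1/2/3 knockout.

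MALAT1 fell in the nuclei of all 4 knockout lines. It was at 10390, 9115 and 9655 CPM in the AGO1 knockout, at 9560, 9778 and 10200 CPM in the AGO2 knockout, at 5497, 5378 and 6507 CPM in the AGO1/2 knockout and at 7191, 7172 and 6048 CPM in the AGO1/2/3 knockout. None of these 12 libraries reached the lowest wild-type library, at 11640 CPM. The log2 changes were -0.53 (SE 0.122, adjusted p = 0.00442), -0.49 (SE 0.122, adjusted p = 0.00498), -1.18 (SE 0.124, adjusted p = 7.08e-07) and -0.95 (SE 0.123, adjusted p = 8.88e-06).

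NEAT1 was lower in the AGO1, AGO1/2 and AGO1/2/3 knockout nuclei, and its size of change leaned on 1 wild-type library. It was at 287, 299 and 319.9 CPM in the AGO1 knockout (log2 -1.16, SE 0.214, adjusted p = 0.00103), at 248, 215 and 319.9 CPM in the AGO1/2 knockout (log2 -1.27, SE 0.214, adjusted p = 8.94e-05) and at 416, 372 and 368 CPM in the AGO1/2/3 knockout (log2 -0.71, SE 0.212, adjusted p = 0.00937). All 9 libraries lay below the lowest wild-type library, at 501 CPM. The AGO2 knockout, at 499.8, 605 and 551 CPM, overlapped wild type and did not pass the test (log2 -0.27, SE 0.211, adjusted p = 0.339). Without the nuclear wild-type library of passage 29 the AGO1/2/3 value was -0.28 (adjusted p = 0.0649) and the call was lost, while the AGO1/2 value stayed called when any 1 library was left out, between -1.44 and -0.83.

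LINC-PINT fell in all 4 lines, and KCNQ1OT1 in the lines without both AGO1 and AGO2. LINC-PINT was at 154, 138 and 143 CPM in AGO1 knockout nuclei, at 168, 154 and 148 in the AGO2 knockout, at 119, 119 and 132 in the AGO1/2 knockout and at 165, 154 and 140.1 in the AGO1/2/3 knockout, all below the wild-type range of 189 to 254 CPM. Its log2 changes were -0.65, -0.52, -0.78 and -0.48 (SE 0.0873 to 0.0876), with adjusted p from 1.39e-06 to 0.000323. KCNQ1OT1 fell in the lines without both AGO1 and AGO2, to 123.1, 113 and 129 CPM in the AGO1/2 knockout (log2 -0.62, SE 0.105, adjusted p = 9.8e-05) and to 152, 143 and 125 CPM in the AGO1/2/3 knockout (log2 -0.42, SE 0.105, adjusted p = 0.00292). In the AGO1 and AGO2 knockouts its values were 0.05 (adjusted p = 0.758) and -0.21 (adjusted p = 0.134), with libraries that overlapped wild type.

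In CPM TUG1 differed in sign between lines. It rose in AGO1 knockout nuclei, at 195, 199.5 and 205 CPM (log2 0.32, SE 0.0638, adjusted p = 0.00172). It fell in the AGO1/2 knockout, at 112, 113 and 115 CPM (log2 -0.40, SE 0.0639, adjusted p = 5.5e-05), and in the AGO1/2/3 knockout, at 131, 123.4 and 117 CPM (log2 -0.28, SE 0.0638, adjusted p = 0.00173). In TPM the AGO1 knockout was within the spread of wild type, at 40.8 ± 2.59 against 38.8 ± 5.35. DANCR, whose gene also hosts a snoRNA, rose in the AGO1 knockout, at 34.2, 35.1 and 35.1 CPM (log2 0.43, SE 0.0869, adjusted p = 0.0018), and in the AGO2 knockout, at 34.1, 30.8 and 36.5 CPM (log2 0.41, SE 0.0866, adjusted p = 0.00161). Its fall in the AGO1/2 knockout, at 20.2, 21.2 and 19.7 CPM (log2 -0.24, SE 0.087, adjusted p = 0.022), was lost when AGO1/2 knockout passage 9 (-0.23) or 11 (-0.22) or wild-type passage 27 (-0.13) or 28 (-0.18) was left out.

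NORAD passed the nuclear test in no line, with group means between 283 and 303 CPM. Its log2 changes were -0.01, -0.09, -0.01 and 0.02 in the lines taken from AGO1 and AGO2 through AGO1/2 to AGO1/2/3, with adjusted p from 0.414 to 0.947 and 2-SE intervals of the fold within 0.841 to 1.14, and the sign of each turned in at least 1 alternative.

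H19 was the 1 member that rose in both multiple knockouts. It was at 6.73, 5.68 and 6.99 CPM in AGO1/2 knockout nuclei and at 7.10, 5.11 and 5.08 CPM in AGO1/2/3 knockout nuclei, and all 6 libraries lay above the highest wild-type library, at 2.77 CPM. The rise was 2.92-fold (log2 1.55, SE 0.162, adjusted p = 7.36e-07) in the AGO1/2 knockout and 2.59-fold (log2 1.38, SE 0.164, adjusted p = 3.94e-06) in the AGO1/2/3 knockout. The AGO1 knockout, at 1.76, 2.07 and 1.71 CPM, and the AGO2 knockout, at 2.84, 3.22 and 2.78 CPM, did not pass the test (log2 -0.36 and 0.33, adjusted p = 0.15 and 0.134). Of all lncRNA genes, 98.9% had a lower value than H19 in the AGO1/2 knockout nuclei and 98.6% in the AGO1/2/3 knockout nuclei.

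**Figure D2:**
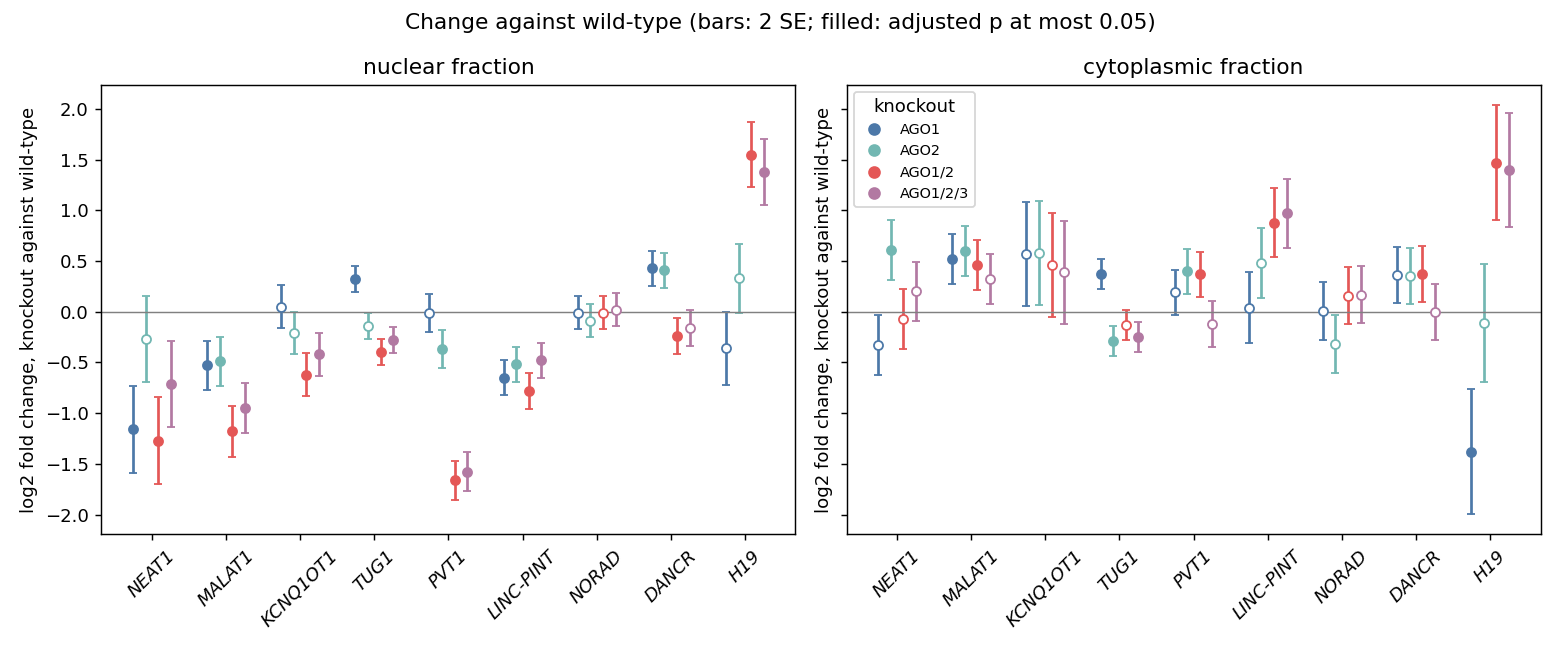
Log2 change of each RNA against wild type in nuclei and in cytoplasm, 1 point per knockout line with bars of 2 SE (3 libraries per group); filled points passed an adjusted p of at most 0.05 and open points did not. Points for PVT1 and MALAT1 lie well below 0 in AGO1/2 and AGO1/2/3 knockout nuclei and near or above 0 in cytoplasm, and H19 lies above 0 in both fractions of those lines.

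The cytoplasm did not show the same falls. In the AGO1/2 knockout 5 of the 9 RNAs rose and none fell, against 23.9% and 25.4% of the 17605 genes tested, and in the AGO1/2/3 knockout 2 rose and 1 fell (background 18.6% and 20%). In the AGO1 knockout 2 rose and 1 fell (background 4.28% and 8.13%), and in the AGO2 knockout 3 rose and 1 fell (background 7.07% and 9%). The members' median log2 changes were 0.19, 0.40, 0.37 and 0.20 in the single knockouts of AGO1 and AGO2 and then in AGO1/2 and AGO1/2/3, against -0.01 to 0.00 over all genes.

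H19 rose in the cytoplasm too. It was at 8.23, 8.14 and 10.2 CPM in the AGO1/2 knockout (2.78-fold, log2 1.47, SE 0.283, adjusted p = 0.000573) and at 10.96, 5.49 and 8.98 CPM in the AGO1/2/3 knockout (2.64-fold, log2 1.40, SE 0.282, adjusted p = 0.00122), against 2.46 to 4.53 CPM in wild type. In the AGO1 knockout it fell to 1.34, 0.996 and 1.33 CPM (log2 -1.38, SE 0.307, adjusted p = 0.00899). The AGO2 knockout, at 2.65, 3.91 and 2.30 CPM, overlapped wild type (log2 -0.11, adjusted p = 0.847).

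LINC-PINT rose in the cytoplasm of the multiple knockouts while it fell in their nuclei. It was at 11.8, 12.5 and 11.7 CPM in the AGO1/2 knockout (log2 0.88, SE 0.172, adjusted p = 0.000663) and at 12.7, 14.7 and 11.2 CPM in the AGO1/2/3 knockout (log2 0.97, SE 0.172, adjusted p = 0.000438), all above the wild-type maximum of 8.34 CPM. On the log2(TPM + 1) scale these changes were 0.15 and 0.21 and did not pass.

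MALAT1 rose in the cytoplasm of the AGO1 knockout, at 1379, 1454 and 1343 CPM (log2 0.52, SE 0.124, adjusted p = 0.0137), and of the AGO2 knockout, at 1372, 1662 and 1360 CPM (log2 0.60, SE 0.124, adjusted p = 0.00436). In the AGO1/2 knockout it was at 1309, 1342 and 1345 CPM and rose by a log2 of 0.46 (SE 0.124, adjusted p = 0.00659), which turned to -0.12 on the log2(TPM + 1) scale. The AGO1/2/3 knockout, at 1198, 1313 and 1142 CPM, did not pass (log2 0.32, adjusted p = 0.0529). In CPM all 12 knockout libraries lay above the wild-type range of 727 to 1089, and the AGO1 call was lost without AGO1 knockout passage 7 (0.49). In TPM they did not. The wild-type range of 79.9 to 140.9 TPM overlapped the AGO1 (133.3 to 156.5) and AGO2 (123.6 to 152.3) knockouts. It held all libraries of the AGO1/2 (97.5 to 113.8) and AGO1/2/3 (99.1 to 121.4) knockouts. On the log2(TPM + 1) scale the median of all genes was itself at -0.2 to -0.08 in the cytoplasmic comparisons with wild type. The part of that shift in the values that turned on this scale was not tested.

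The other cytoplasmic calls were smaller and several rested on 1 library. PVT1 was at 29.96, 28.2 and 28.0 CPM in the AGO2 knockout (log2 0.40, adjusted p = 0.0257) and at 28.9, 32.8 and 23.4 CPM in the AGO1/2 knockout (log2 0.37, adjusted p = 0.0119), where the rise turned to -0.10 on the log2(TPM + 1) scale. The AGO2 call for PVT1 was lost without AGO2 knockout passage 8, 9 or 10 or wild-type passage 29 (0.32 to 0.41), and the AGO1/2 call without AGO1/2 knockout passage 10 (0.25). In the AGO1/2/3 knockout PVT1 was at 18.7, 20.7 and 21.3 CPM, within the spread of wild type (log2 -0.12, adjusted p = 0.429).

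NEAT1 rose in AGO2 knockout cytoplasm, at 61.1, 80.4 and 61.6 CPM (log2 0.61, SE 0.147, adjusted p = 0.0117), a call lost without AGO2 knockout passage 9 (0.47). TUG1 rose in AGO1 knockout cytoplasm (log2 0.37, adjusted p = 0.00525) and fell in the AGO2 knockout (log2 -0.29, adjusted p = 0.0181) and the AGO1/2/3 knockout (log2 -0.25, adjusted p = 0.0154). Both falls were lost without wild-type passage 27 or 28, the AGO2 one also without AGO2 knockout passage 8 (-0.26) and the AGO1/2/3 one without AGO1/2/3 knockout passage 11 (-0.19). DANCR rose in the AGO1/2 knockout (log2 0.37, adjusted p = 0.0398), a call lost without AGO1/2 knockout passage 9 (0.35) or 10 (0.25) or wild-type passage 29 (0.21) and turned to -0.05 on the log2(TPM + 1) scale. KCNQ1OT1 and NORAD passed in no cytoplasmic comparison, at log2 values of 0.39 to 0.58 and of -0.32 to 0.17.

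The nuclear excess of the most nuclear RNAs was smaller in the lines without both AGO1 and AGO2. Within the AGO1/2 knockout 5 of the 9 RNAs were still higher in nuclei and 3 in cytoplasm (background 36.9% and 31.6%), and within the AGO1/2/3 knockout 5 and 4 (background 36.1% and 34.1%). The AGO1/2/3 call for H19 (log2 -0.56, adjusted p = 0.0295) was lost without cytoplasmic passage 11 (-0.33) or 14 (-0.51) or nuclear passage 12 (-0.48) or 14 (-0.47). Within the AGO1 knockout 6 were higher in nuclei and 2 in cytoplasm (background 40% and 34.5%), and within the AGO2 knockout 5 and 1 (background 39.8% and 33.6%). The change of the ratio, tested as an interaction of genotype and fraction, was called for 7 members in the AGO1/2 knockout, 5 in the AGO1/2/3 knockout, 3 in the AGO2 knockout and 1 in the AGO1 knockout, and every called change was a fall. With the nuclear and cytoplasmic libraries of 1 passage paired in a block, 3 were called in the AGO1 knockout (NEAT1 at -0.75, adjusted p = 0.0046, and LINC-PINT at -0.69, adjusted p = 0.0116, in addition) and 5 in the AGO2 knockout (NEAT1 at -0.80, adjusted p = 0.000808, and KCNQ1OT1 at -0.82, adjusted p = 0.00395, in addition). Over all 20104 genes, falls were called for 17% in AGO1/2, 11.1% in AGO1/2/3, 3.13% in AGO2 and 0.478% in AGO1. Rises were called for 19.6%, 11.7%, 2.63% and 0.184% of them. Over the 3659 lncRNA genes tested, falls were called for 25.9%, 14.4%, 4.4% and 0.902%. Rises of lncRNA genes were called for 0.629%, 0.41%, 0.191% and 0.0547%, so called lncRNA genes at large mostly fell too. Median changes of the members were -1.16, -0.89, -0.77 and -0.18 in the same order, against -0.04 to 0.06 over all genes.

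In CPM, though not in TPM, PVT1 moved clearly from one side to the other. Its log2 ratio was 0.94 in wild type, 0.76 (SE 0.109, adjusted p = 7.46e-07) in the AGO1 knockout, 0.18 (SE 0.109, adjusted p = 0.149) in the AGO2 knockout and -1.17 (SE 0.111, adjusted p = 9e-10) in the AGO1/2 knockout, where cytoplasmic CPM was 2.25-fold the nuclear. In the AGO1/2/3 knockout it was -0.60 (SE 0.112, adjusted p = 3.32e-05), which turned to 0.02 on the log2(TPM + 1) scale. On that scale the AGO1/2 ratio was -0.17 and did not pass, so that the fall of the ratio, and not its side, was shared by the scales. The fall was -2.11 in the AGO1/2 knockout (SE 0.158, adjusted p = 1.18e-09), the largest of the list, and -1.54 in the AGO1/2/3 knockout (SE 0.158, adjusted p = 3.77e-07), and -0.77 in the AGO2 knockout (SE 0.155, adjusted p = 0.00466).

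LINC-PINT went from a 34.4-fold nuclear excess in wild type to 10.3-fold in the AGO1/2 knockout and 11.9-fold in the AGO1/2/3 knockout, a change of -1.75 (SE 0.197, adjusted p = 2.62e-07) and -1.53 (SE 0.196, adjusted p = 5e-06). MALAT1 went from 14.2-fold to 4.35-fold in the AGO1/2 knockout and 5.59-fold in the AGO1/2/3 knockout, a change of -1.71 (SE 0.181, adjusted p = 1.05e-07) and -1.35 (SE 0.180, adjusted p = 8.81e-06). Without the block MALAT1 was the 1 member whose ratio fell in both single knockouts, and with it NEAT1 and LINC-PINT did so too. The MALAT1 ratio fell by 1.03 in AGO1 (adjusted p = 0.00623) and by 1.08 in AGO2 (adjusted p = 0.000821) on the log2 scale. For LINC-PINT the single-knockout changes were -0.67 in AGO1 (adjusted p = 0.0985) and -0.99 in AGO2 (adjusted p = 0.0039).

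NEAT1 went from 14.8-fold to 6.14-fold in the AGO1/2 knockout (change -1.27, SE 0.267, adjusted p = 0.000516) and 7.48-fold in the AGO1/2/3 knockout (change -0.99, SE 0.266, adjusted p = 0.00845). On the log2(TPM + 1) scale these changes were -0.47 and -0.51 and did not pass. KCNQ1OT1 went from 34.8-fold to 15.6-fold (change -1.16, SE 0.278, adjusted p = 0.00185) and 18.8-fold (change -0.89, SE 0.278, adjusted p = 0.022), and the second call was lost without AGO1/2/3 knockout cytoplasm passage 12 (-0.69), wild-type cytoplasm passage 29 (-0.56) or AGO1/2/3 knockout nuclei passage 14 (-0.82).

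The ratios of DANCR and TUG1 fell in the AGO1/2 knockout. The DANCR ratio fell by 0.69 in the AGO1/2 knockout (SE 0.177, adjusted p = 0.0033), to a 3.26-fold cytoplasmic excess of CPM. In TPM the excess was smaller, with DANCR at 37.0 ± 1.10 in AGO1/2 knockout nuclei and 45.7 ± 5.12 in cytoplasm. The TUG1 ratio fell by 0.35 in the AGO1/2 knockout (SE 0.105, adjusted p = 0.0099), which turned to a rise of 0.10 on the log2(TPM + 1) scale. The H19 ratio change was -0.01 in the AGO1/2 knockout and -0.11 in the AGO1/2/3 knockout (SE 0.355 and 0.345, adjusted p = 0.999 and 0.873), with 2-SE intervals of 0.608 to 1.63 and 0.575 to 1.5 times the wild-type ratio. In the AGO1 knockout the H19 ratio change was 1.04 and did not pass (SE 0.378, adjusted p = 0.198). NORAD had values of -0.25 and -0.23 (SE 0.168, adjusted p = 0.253 and 0.361). With both wild-type passage 29 libraries left out, a choice made after seeing the data, the counts of called changes stayed at 1 for AGO1, 3 for AGO2, 7 for AGO1/2 and 5 for AGO1/2/3.

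**Figure D3:**
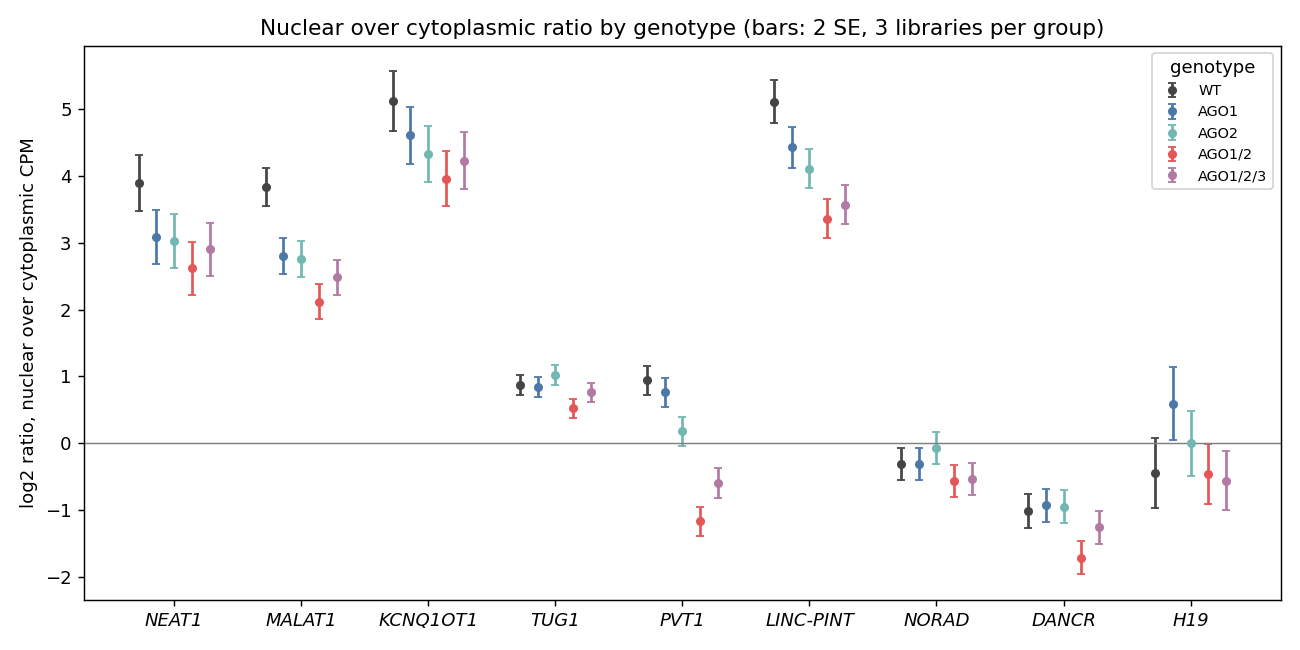
Log2 nuclear over cytoplasmic ratio of CPM for each RNA in the 5 genotypes; points are fitted ratios with bars of 2 SE, 3 libraries per group and fraction, and the line at 0 marks equal CPM. KCNQ1OT1 and LINC-PINT start near 5 in wild type and reach 3.36 to 4.23 in the AGO1/2 and AGO1/2/3 knockouts, and PVT1 crosses from 0.94 to -1.17 and -0.60.

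The falls have to be read beside those of lncRNA genes at large. Over the lncRNA genes tested, the median log2 change in AGO1/2 knockout nuclei was -0.78, with 1832 of 3229 called lower and 132 higher, and in AGO1/2/3 knockout nuclei it was -0.53, with 1358 lower and 162 higher. Protein-coding genes had medians of 0.15 and 0.12 there. In the cytoplasm the lncRNA medians were 0.00 to 0.01 in all 4 knockouts. The median lncRNA ratio went from 2.01 in wild type to 1.85 in the AGO1 knockout, 1.71 in AGO2, 1.11 in AGO1/2 and 1.41 in AGO1/2/3.

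Against that background the members stood at different places in AGO1/2 knockout nuclei. PVT1, NEAT1 and MALAT1 were in the lower part, with 11.7%, 23.8% and 27.8% of lncRNA genes below them, LINC-PINT was at the middle with 49.7%, and KCNQ1OT1, TUG1, DANCR and NORAD were above it with 59.6%, 70.7%, 77.2% and 84.4%. Whether the list differed from other lncRNA genes was not tested.

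**Figure D4:**
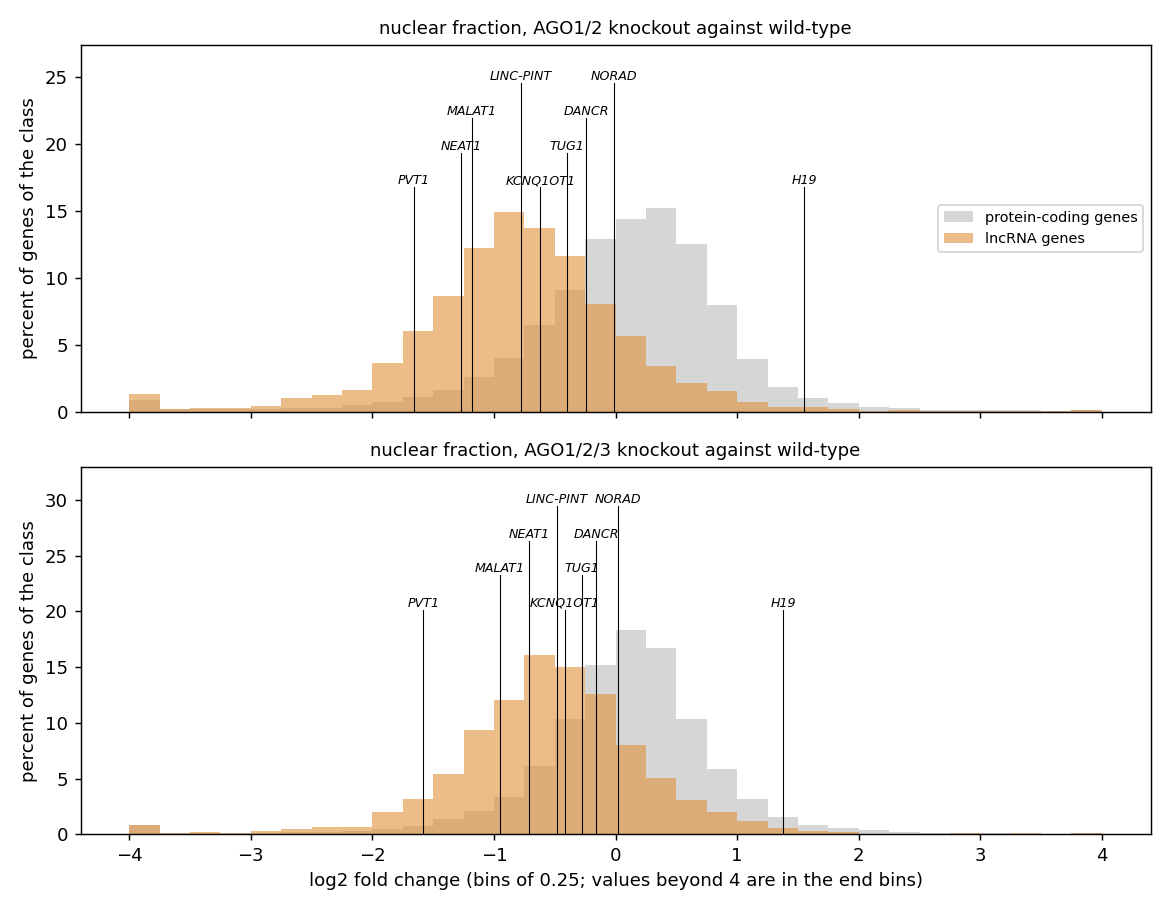
Bars give the share of lncRNA and of protein-coding genes in each log2-change bin of 0.25 (percent of the class) in nuclei of the AGO1/2 and AGO1/2/3 knockouts against wild type, with the 9 RNAs marked at their own values. The lncRNA bars are shifted to lower values in both panels, PVT1 lies in its lower tail and H19 in its upper tail.

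Some fraction markers moved with these results. The 6 cytoplasmic reference mRNAs (GAPDH, ACTB, EEF1A1, RPLP0, RPS3 and TUBA1B) were called higher in AGO1/2 and AGO1/2/3 knockout nuclei in 6 of 6 cases each, with medians of 0.92 and 0.65, and in 5 of 6 cases in each single knockout, with medians of 0.42 and 0.35. ACTB was itself higher in wild-type nuclei than in cytoplasm (log2 ratio 0.67, adjusted p = 0.000195), so it is no cytoplasmic marker here. GAPDH, a glycolytic enzyme, was at 1426 CPM in wild-type and 2926 CPM in AGO1/2 knockout nuclei. The 3 mitochondrial RNAs MT-CO1, MT-ND4 and MT-ATP6, whose wild-type log2 ratios were -5.32 to -6.27, were called in none of the 4 nuclear comparisons, at medians of -0.19 and 0.02 in the AGO1/2 and AGO1/2/3 knockouts, and rose in AGO1/2 knockout cytoplasm (3 of 3, median 0.92). Of the nuclear reference RNAs, RMRP had higher CPM in nuclei in wild type (log2 ratio 3.09). RN7SK (-1.10) and RPPH1 (-3.93), listed as nuclear RNAs, had higher CPM in cytoplasm. The part of these shifts in the lncRNA results was not tested. In bulk fractions, fewer copies per cell and a change of which cells or how much of a fraction was recovered cannot be told apart. The study reports that its harsh lysis broke some nuclei, so that a little nuclear RNA may be found in its cytoplasmic fraction. It therefore gives its own enrichments of NEAT1 and MALAT1 as minimum estimates.

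The level of PVT1 in nuclei was divided over several transcripts. In PVT1 the transcript ENST00000521951 went from 11.1 ± 1.60 TPM (SD, n = 3) in wild-type nuclei to 1.798 ± 0.217 in the AGO1/2 and 1.82 ± 0.0993 in the AGO1/2/3 knockout, and ENST00000518528 from 8.04 ± 1.24 to 1.61 ± 0.270 and 2.13 ± 0.0799. In the same nuclei ENST00000513868 was at 3.82 ± 0.108, 2.77 ± 0.753 and 2.23 ± 0.473 TPM and ENST00000523190 at 6.15 ± 0.458, 4.64 ± 1.92 and 3.68 ± 0.170 TPM in wild type, AGO1/2 and AGO1/2/3. These last transcripts made up most of cytoplasmic PVT1, where they were at 4.85 ± 0.753, 5.31 ± 0.638 and 4.15 ± 0.127 TPM and at 9.94 ± 1.60, 11.3 ± 0.943 and 8.90 ± 1.02 TPM. PVT1 transcripts overlap each other, so the split of reads between them is an estimate by Salmon, and no test was made per transcript. The first 2 transcripts were chosen after their values were seen.

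NEAT1 is made in a short polyadenylated form and a long form that builds paraspeckles, and the tables separate a 22743-nt transcript from shorter ones of 1811 and 483 nt and others. The long transcript took 16.8% ± 0.217 (SD, n = 3) of NEAT1 TPM in wild-type nuclei, 14.5% ± 0.882 in the AGO1 knockout, 12.4% ± 0.268 in the AGO2 knockout, 16.1% ± 1.06 in the AGO1/2 knockout and 16.3% ± 2.09 in the AGO1/2/3 knockout. In wild-type cytoplasm it was 12.9% ± 4.90. Of 13 comparisons, libraries did not overlap in nuclear AGO1 against wild type (-2.27 points) and nuclear AGO2 against wild type (-4.33 points). Each had an exact two-sided permutation p of 0.1, the smallest that 3 against 3 libraries allow, and a Benjamini-Hochberg adjusted p of 0.65 over the 13 comparisons.

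Both NEAT1 forms were lower in AGO1/2 knockout nuclei. The long form was at 16.8, 16.98 and 29.99 TPM in wild-type nuclei of passages 27, 28 and 29, at 8.30, 7.37 and 10.6 TPM in the AGO1/2 knockout and at 12.2, 10.5 and 11.04 TPM in the AGO1/2/3 knockout. The shorter transcripts together were at 85.0, 83.0 and 149 TPM, at 47.1, 35.8 and 54.3 TPM and at 70.0, 58.0 and 48.1 TPM in the same groups. No knockout library of these 2 lines reached the wild-type range for either form. The shorter transcripts lie within the long one, so reads of the shared part were divided by estimation.

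**Figure D5:**
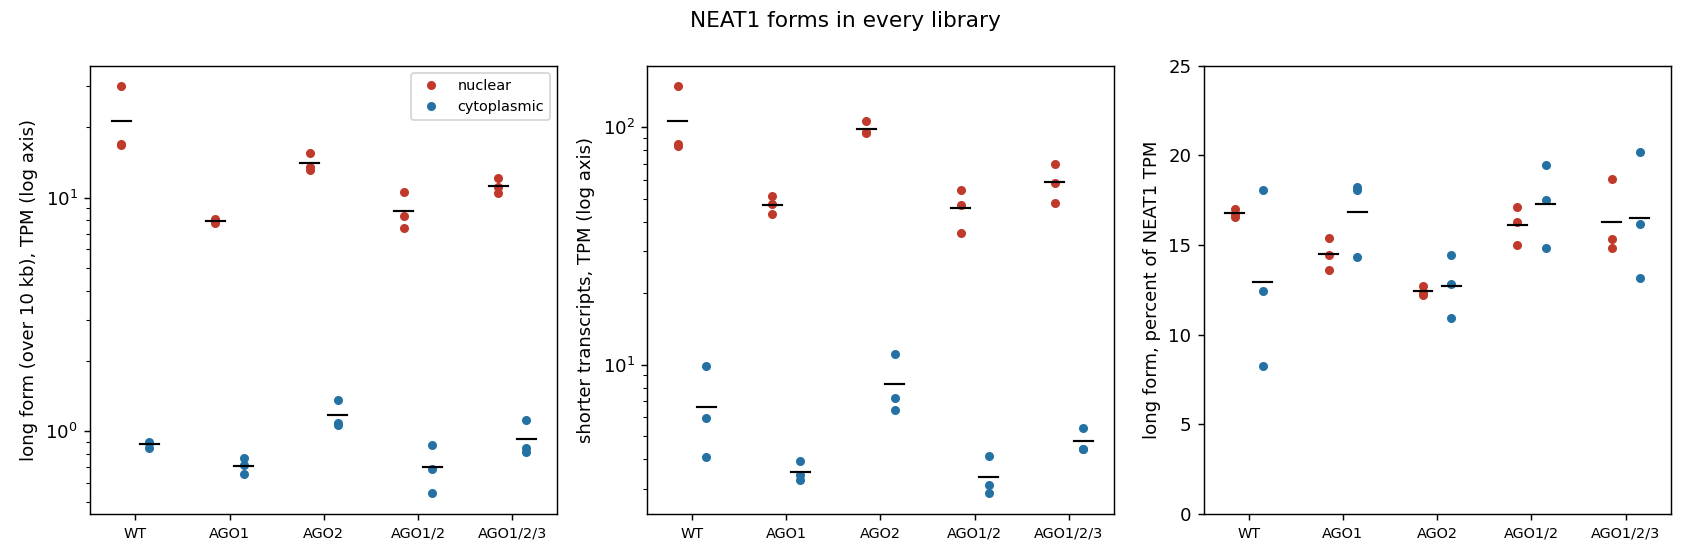
Long NEAT1 transcript, shorter NEAT1 transcripts (TPM, log axes) and the long form's percent of NEAT1 TPM in every library, by genotype; red points are nuclear, blue points cytoplasmic and bars are means of 3. Nuclear levels of both forms lie above the cytoplasmic ones in every line, while the share of the long form stays between 8.27% and 20.2% in all 30 libraries.

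The mRNAs of proteins that work with these RNAs were counted in the same comparisons. Of 22 paraspeckle protein genes, 8 rose and 1 fell in AGO1/2 knockout nuclei (median 0.10). In AGO1/2/3 knockout nuclei 4 rose and 3 fell (median 0.01). The shares over all genes were 32.9% higher and 34.7% lower in the former and 29.1% and 29.5% in the latter. Over protein-coding genes they were 43.8% and 25.8% in the former and 38.5% and 24.1% in the latter. HNRNPUL1 and NUDT21, both RNA-binding proteins, rose most in AGO1/2 knockout nuclei, by a log2 of 0.69 and 0.68. NONO, a core paraspeckle protein, rose by a log2 of 0.42 (SE 0.0686, adjusted p = 6.58e-05) in AGO1/2 knockout nuclei and fell in the cytoplasm (log2 -0.72, SE 0.0817, adjusted p = 5.2e-06). SFPQ, its partner, fell in that cytoplasm by 0.88 on the log2 scale (SE 0.133, adjusted p = 8.17e-05). There 15 of the 22 genes fell with none higher (median -0.42), against 25.4% and 23.9% of all genes. Over protein-coding genes the shares were 29.3% lower and 27% higher.

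Of 15 genes of MALAT1 maturation and nuclear speckles, 4 rose and 4 fell in AGO1/2 knockout nuclei (median 0.03), and 7 fell and none rose in the cytoplasm (median -0.21). The shares over all genes were 32.9% higher and 34.7% lower in nuclei and 23.9% and 25.4% in cytoplasm, also for the partners below. Over protein-coding genes they were 43.8% and 25.8% in nuclei and 27% and 29.3% in cytoplasm. METTL3, the m6A writer, fell in both fractions (log2 -0.47, adjusted p = 0.000497 in nuclei, and -0.75, adjusted p = 4.36e-05 in cytoplasm), and ELAC2, the RNase Z that can trim tRNA-like 3′ ends, fell in the cytoplasm (log2 -0.75, adjusted p = 8.56e-05). Of 10 partners and readers of cytoplasmic lncRNAs, 8 rose and 2 fell in AGO1/2 knockout nuclei (median 0.52), while 2 rose and 5 fell in the cytoplasm (median -0.25). In those nuclei IGF2BP1, an mRNA-stabilising protein, rose (log2 1.24, SE 0.227, adjusted p = 0.000195), and IGF2BP3, its paralog, fell (log2 -0.91, SE 0.0956, adjusted p = 7.01e-07).

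Of 20 protein-coding neighbours of the 9 genes, 19 were tested in nuclei. There 13 rose and 3 fell in the AGO1/2 knockout (median 0.38) and 11 rose and 2 fell in the AGO1/2/3 knockout (median 0.26). The shares over all genes were 32.9% and 34.7% in AGO1/2 and 29.1% and 29.5% in AGO1/2/3. Over protein-coding genes they were 43.8% and 25.8% in AGO1/2 and 38.5% and 24.1% in AGO1/2/3. In cytoplasm all 20 were tested, and 6 rose and 4 fell in AGO1/2 (median 0.15) and 9 rose and 3 fell in AGO1/2/3 (median 0.12). The shares over protein-coding genes there were 27% and 29.3% in AGO1/2 and 21.6% and 23.4% in AGO1/2/3. Over all genes they were 23.9% and 25.4% and 18.6% and 20%. IGF2, the imprinted growth factor gene next to H19, rose in AGO1/2 knockout nuclei, from 18.9 to 35.5 CPM (log2 0.98, SE 0.117, adjusted p = 3.03e-06). CDKN1C, a cell-cycle inhibitor of the imprinted domain around KCNQ1OT1, rose from 3.89 to 10.2 CPM (log2 1.47, SE 0.191, adjusted p = 7.04e-06). KCNQ1OT1 fell in the same nuclei, and a link between these changes was not tested. MYC, beside PVT1, fell in AGO1/2 knockout nuclei from 264 to 159 CPM (log2 -0.66, adjusted p = 4.86e-07) and in cytoplasm from 365 to 143 CPM (log2 -1.36, adjusted p = 5.81e-09). PHLDA2, an imprinted gene of the same domain as CDKN1C, rose from 36.2 to 82.0 CPM in AGO1/2 knockout nuclei (adjusted p = 2.66e-06), and CD81, a tetraspanin gene, from 63.7 to 128 CPM (adjusted p = 3.7e-10), while IGF2 and MYC were picked for their place beside H19 and PVT1 after their values were seen. Gene lists of this kind describe counts only and were chosen with results of these libraries known.

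The genes whose level followed each member most closely over the 10 group means were taken from 12992 candidates by Pearson's r of log2 CPM, given as a description because fraction and scaling are shared. For NEAT1 they included IRF1-AS1 (r = 0.997) and ACCS (r = 0.993), and for KCNQ1OT1 SNHG22 (r = 0.998). LINC-PINT was closest to ALOX12P2 (r = 0.998) and STARD9 (r = 0.996), and TUG1 to TRIP11 (r = 0.990). PVT1 was closest to UBE2G2 (r = 0.968), NORAD to PACS2 (r = 0.961) and H19 to CSPG5 (r = 0.985) and SOCS3 (r = 0.980). For DANCR they included RPS29 (r = 0.982).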

How the data were processed

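Transcript tables of 30 libraries held estimated counts and TPM that the authors deposited from Salmon. The submitters' notes name STAR 2.5.3a, Salmon 0.11.0 and hg38, while the study's methods name other versions. Of 200401 transcripts per table, 195887 matched GENCODE release 44 by identifier and were summed to genes, and 2.23 to 4.01% of reads were unmatched. Gene sums of estimated counts were rounded and tested by the quasi-likelihood test of edgeR 4.0.16 in R 4.3.3 (TMM scaling, filterByExpr with a minimum count of 10, Benjamini-Hochberg adjusted p of at most 0.05), with all 30 libraries for ratios and their changes and 15 for each fraction. DESeq2 1.42.0, limma 3.58.1 on log2(TPM + 1) and other alternatives were run. Named genes are the 9 members, from each list up to 4 genes called with the largest changes in AGO1/2 or AGO1/2/3, the 3 genes most alike to each member (some left unnamed) and transcripts with at least 20% of gene TPM in any group. The members and lists were chosen with earlier results of these data known. On simulated data with log2 changes of 1, 143 of 200 changed genes were recovered in nuclear AGO1/2/3 knockout against wild type (18919 genes), 116 for the wild-type ratio and 113 for the AGO1/2/3 change of ratio (20104 genes each). For each passage, r was taken between the nuclear and the cytoplasmic deviations from the group means. This r was 0.551 to 0.802 in the wild type and 0.139 to 0.721 in the AGO1/2 knockout. In AGO1 it was 0.079 to 0.486, in AGO2 0.087 to 0.404 and in AGO1/2/3 -0.011 to 0.26. Except in AGO1/2/3 passage 11 (-0.011 against 0.003), it exceeded the mean r with other passages. That mean was -0.256 to -0.026 in AGO1 and -0.191 to -0.041 in AGO2. Depth was 20431557 to 79731793 estimated reads.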

Additional observations from a re-analysis of the deposited data

Results flagged for a closer look

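The nuclear over cytoplasmic ratio differed between a knockout line and wild type, by the interaction of genotype and fraction, in 16 cases, all of them falls on the log2 scale of CPM. In the AGO1 knockout this held for MALAT1 (-1.03). In the AGO2 knockout it held for MALAT1 (-1.08), PVT1 (-0.77) and LINC-PINT (-0.99). In the AGO1/2 knockout it held for NEAT1 (-1.27), MALAT1 (-1.71), KCNQ1OT1 (-1.16), TUG1 (-0.35), PVT1 (-2.11), LINC-PINT (-1.75) and DANCR (-0.69). In the AGO1/2/3 knockout it held for NEAT1 (-0.99), MALAT1 (-1.35), KCNQ1OT1 (-0.89), PVT1 (-1.54) and LINC-PINT (-1.53). The 4 comparisons share the wild-type libraries. Falls also outnumbered rises among called lncRNA genes at large, at 949 against 23 in the AGO1/2 and 528 against 15 in the AGO1/2/3 knockout.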

How the results depend on the processing

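Each single-RNA value was set against its main result under each alternative other than leaving out a library. Of these cases, 991 kept direction and side of the threshold, 85 lost and 70 gained the call and 59 turned, and the cause was not tested. Left out of these counts, and of the turned values listed below, were 30 values called in no setting. Of those 30 values, 17 changed sign in at least 1 setting. Scaling moved the median of all genes in the ratios from 0.03 to 0.09 to 0.45 to 0.58 with library totals, where 73.1 to 79.0% of calls were nuclear in place of 51.4 to 54.2%, and TPM moved it to 0.24 to 0.48. With library totals the nuclear knockout median moved to -0.34 to -0.16 and 21.2 to 29.8% of calls were higher in place of 47.8 to 50.3%, and the cytoplasmic one to -0.19 to -0.06 and 17.3 to 35.7% in place of 34.5 to 48.5%. On log2(TPM + 1) the nuclear knockout median was -0.17 to -0.07, with 5.9 to 42.7% of calls higher. The cytoplasmic one was -0.2 to -0.08 there, with 5.99 to 17.7% of calls higher.

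On log2(TPM + 1) and log2(TPM + 0.1), these values turned: cytoplasmic AGO1/2 DANCR (-0.0491, -0.0494), MALAT1 (-0.12, -0.12) and PVT1 (-0.10, -0.10), cytoplasmic AGO1/2/3 MALAT1 (-0.10, -0.10) and NEAT1 (-0.3002, -0.33), nuclear AGO1/2/3 NORAD (-0.19, -0.19), the H19 ratio in AGO2 (0.37, 0.66), AGO1/2 (0.58, 0.75) and AGO1/2/3 (0.14, 0.19), the NORAD ratio in wild type (0.24, 0.24), AGO1 (0.13, 0.13), AGO2 (0.45, 0.46), AGO1/2 (0.46, 0.47) and AGO1/2/3 (0.12, 0.13), the PVT1 ratio in AGO1/2/3 (0.0229, 0.0243) and the AGO1/2 ratio change of H19 (0.63, 0.82) and TUG1 (0.10, 0.13). With library totals the ratio turned for H19 in wild type (0.073), AGO2 (0.43) and AGO1/2 (0.0425) and for NORAD in wild type (0.21), AGO1 (0.11) and AGO2 (0.36), and the nuclear AGO1/2/3 change for NORAD (-0.24). With length-scaled counts these turned: NEAT1 in cytoplasmic AGO1/2/3 (-0.17), NORAD in nuclear AGO1 (0.0241) and AGO1/2 (0.0891), the H19 ratio in AGO2 (0.12) and the H19 ratio change in AGO1/2 (0.57). With no filter NORAD turned in nuclear AGO1 (0.034) and AGO1/2 (0.0671) and the H19 ratio change in AGO1/2 (0.11). With only the groups compared, NORAD turned in nuclear AGO1 (0.0154) and AGO1/2 (0.0030). With DESeq2 and with RLE factors NORAD turned in nuclear AGO1/2 (0.0129, 0.0128) and the H19 ratio in AGO2 (0.0383, 0.0373). With a mean count of at least 50, NORAD turned in nuclear AGO1/2/3 (-0.0499), and in AGO2 the ratios of NORAD (0.0926) and H19 (0.16).

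Counts of members called moved by over 1.5 times in these cases. For ratio changes in AGO1, 1 became 2 on both TPM scales, with library totals and with length-scaled counts, 3 with DESeq2 and no filter and 0 with only the groups compared. In AGO2, 3 became 5 with DESeq2 and no filter, in AGO1/2, 7 became 4 on log2(TPM + 0.1), and in AGO1/2/3, 5 became 3 with only the groups compared. For cytoplasm in AGO1, 3 became 1 on log2(TPM + 1), in AGO1/2, 5 became 3 on both TPM scales, with library totals and with only the groups compared, and in AGO2, 4 became 2 on both TPM scales, 1 with length-scaled counts and 0 with only the groups compared. For nuclei in AGO2, 4 became 7 with library totals, and for ratios in AGO1/2/3, 9 became 5 on both TPM scales. With estimated reads in place of TPM, the long NEAT1 share in nuclear AGO2 minus wild type was -6.24 points, and nuclear minus cytoplasmic shares were 8.25 in wild type, 1.12 in AGO2, 0.83 in AGO1/2 and 2.44 in AGO1/2/3, where the last 3 were negative in TPM (-0.29, -1.15 and -0.21).

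Leaving out each library in turn turned a single-RNA value in 18 cases, each case being 1 value with 1 library left out. The values that turned were the H19 ratio change in AGO1/2 (-0.35 to 0.15), the H19 ratio in AGO2 (-0.16 to 0.25) and cytoplasmic AGO1/2 NEAT1 (-0.19 to 0.10). Nuclear NORAD also turned in AGO1 (-0.0432 to 0.0773), AGO2 (-0.12 to 0.0099), AGO1/2 (-0.0821 to 0.0923) and AGO1/2/3 (-0.0108 to 0.12). Counts ran from 1 to 2 for ratio changes in AGO1, from 2 to 4 for cytoplasmic AGO2 and from 3 to 5 for cytoplasmic AGO1/2. Pairing the fractions of 1 passage as a replicate block, the AGO1/2 ratio of H19 became called (-0.45, adjusted p = 0.0125 by edgeR), ratio changes called went from 1 to 3 in AGO1 and from 3 to 5 in AGO2 and stayed at 7 and 5 in AGO1/2 and AGO1/2/3, and the H19 ratio in AGO2 turned to 0.0174. No paired analysis was possible for knockout against wild type because these groups share no passage numbers. H19, with 53 to 691 reads per library, is the member whose values depth limits most.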
